A study of Mus musculus with 36 samples.

Results

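Collagen chain genes were read as all probe sets on the array whose annotation gave a single symbol made of Col, a number, the letter a and a number. This rule found 82 probe sets for 42 genes, of 45037 probe sets and 18193 singly annotated genes in all, and 27 of the 42 genes had several probe sets. The members were grouped by the structure their chains build: 21 probe sets for 11 fibrillar chains, 12 for 6 basement membrane chains, 7 for 5 beaded filament chains, 5 for 3 short-chain network chains, 24 for 9 fibril-associated (FACIT) chains, 7 for 4 transmembrane chains, 3 for 2 multiplexin chains and 3 for 2 other chains, the anchoring fibril chain Col7a1 and Col26a1. All 82 probe sets were tested, with no filter on low signal.

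Collagens are secreted or membrane-bound proteins in which chains wind into a triple helix. Fibrillar collagens give the lung its tensile strength, type IV collagen forms the sheet of the basement membrane under epithelium and around capillaries, and FACIT chains decorate fibrils and set their spacing. In the alveolus the epithelial and capillary basement membranes are fused over much of the gas exchange surface, and type IV collagen is the main structural protein of that thin layer.

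Whole lung RNA came from male Notch3-/- mice (B6;129S1-Notch3tm1Grid/J), male Notch4-/- mice (B6;129S1-Notch4tm1Grid/J) and male wild-type (WT) B6129SF1/J mice, 7 to 13 weeks old. Mice of each genotype breathed ozone at 0.3 ppm without a break, until 6, 24 or 48 hr had passed, or filtered air, which gave 12 groups with 3 arrays each, 36 in all. By design both knockouts lack the receptor in every cell throughout life. The WT mice were bought as a first-generation hybrid, so strain background and knockout cannot be told apart. Each genotype had 1 set of air arrays, so the 3 ozone times shared their air arrays, and the comparisons of the knockouts with WT shared the WT arrays. The paper ran air exposures of matching length, but the labels give no duration for the air arrays. Whether ozone and air arrays were matched in time could therefore not be checked.

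The deposited values were log2 signals shifted so that the median of every probe set on the 36 arrays was 0. They are called relative log2 signals here (centred log2 values in the plots), and they carry no information on which gene was brighter, so the tissue could not be checked by the level of its markers. No label tied arrays to separate mice. The p-values rest on the spread between arrays within groups, estimated for each probe set over all 12 groups together. In whole lung RNA, fewer cells of a type and less RNA per cell cannot be told apart.

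The targeted genes fitted the labels of the knockout lines, apart from 2 arrays on 1 Notch4 probe set and a further Notch4 probe set that did not separate the lines. Notch3 (1421965_s_at) lay between -4.51 and -3.13 on the 12 Notch3-/- arrays and between -0.53 and 0.60 on the 12 WT arrays. Notch4 (1449146_at) read -1.97 and -1.40 on Notch4-/- air replicates 1 and 2, and between -4.31 and -3.42 on the other 10 Notch4-/- arrays. The WT arrays read -0.38 to 0.58. On 1456263_at the Notch4-/- arrays lay between -0.82 and -0.19, with air replicates 1 and 2 at -0.47 and -0.19, and the WT arrays between -0.14 and 0.58. On 1436901_at the Notch4-/- arrays (-0.23 to 0.16) lay within the WT range (-0.31 to 0.25). The spread of an array over all probe sets ran from 0.164 to 0.426 (SD), widest on Notch4-/- 48 hr replicate 2. The median of 8 skeletal muscle markers was 4.08 on Notch3-/- air replicate 3 and at most 1.15 on all other arrays.

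Calls of collagen probe sets in response to ozone were set beside the share of all probe sets called. Averaged over the 3 genotypes, 0 collagen probe sets rose and 1 fell at 6 hr, where 0.822% of all probe sets rose and 2.08% fell (adjusted p under 0.05, limma with Benjamini-Hochberg adjustment over all probe sets). At 24 hr 1 rose and 1 fell, against a background of 3.19% higher and 2.1% lower. At 48 hr 1 of 82 rose and 8 fell, against 6.72% higher and 3.96% lower. The median difference of the 82 probe sets was 0.01, -0.02 and -0.03 on the log2 scale at 6, 24 and 48 hr, and that of all probe sets was -0.01, -0.02 and -0.01. At an unadjusted p under 0.05 the counts were 15, 8 and 16 of 82, where 19.2%, 21.2% and 22.3% of all probe sets were. Of the 8 probe sets that fell at 48 hr, 6 were type IV collagen chains.

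**Figure D1:**
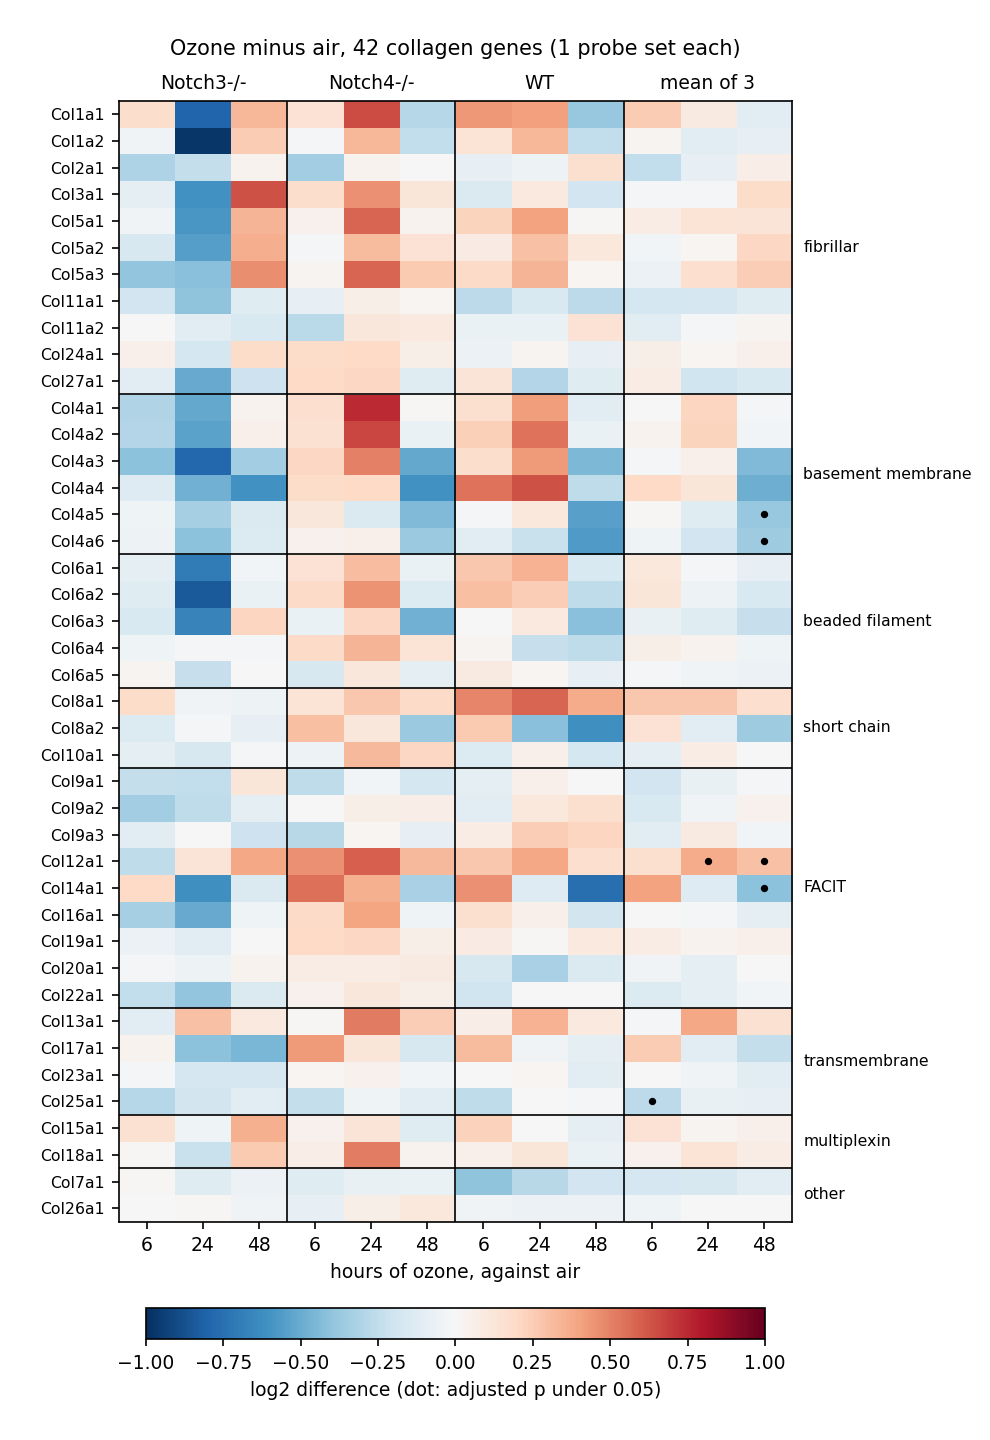
Each row is 1 of the 42 collagen genes, grouped by structure and shown by 1 probe set, and each column is an ozone time minus air, first in single genotypes and then as the mean of the 3. Colour is the log2 difference and a dot marks an adjusted p under 0.05. The dots of the 48 hr mean sit on Col4a5, Col4a6, Col14a1 and Col12a1, and the 24 hr column of Notch3-/- mice is mostly below 0. Col4a4 carries no dot because the probe set shown for it did not pass while its other 2 did.

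Basement membrane collagen held the clearest ozone response, a fall at 48 hr in 3 of the 6 type IV chains. Col4a1 and Col4a2 encode the chains found in basement membranes throughout the body, Col4a3, Col4a4 and Col4a5 those of the network typical of alveolar and glomerular basement membranes, and Col4a6 a chain that pairs with Col4a5 in basement membranes of bronchi and smooth muscle. Of the 12 type IV probe sets, 6 fell and 0 rose at 48 hr, and their median difference was -0.41 against -0.01 for all probe sets. The 6 belonged to Col4a4, Col4a5 and Col4a6. The genes lie in neighbouring pairs, Col4a1 with Col4a2 on chromosome 8, Col4a3 with Col4a4 on chromosome 1, and Col4a5 with Col4a6 on the X chromosome.

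Col4a5 and Col4a6 are read from opposite strands, and their annotated starts lie 1343 bases apart, so the 250 bases before each start are shown for the pair that fell together. Sequences are from RefSeq on GRCm38.p6, Col4a5 at chrX:141475169-141475418 on the plus strand and Col4a6 at chrX:141474077-141474326 on the minus strand, each read 5′ to 3′ towards its gene. Capitals mark a GC box (GGGCGG, on either strand) and a CCAAT box (CCAAT, on either strand).
Col4a5: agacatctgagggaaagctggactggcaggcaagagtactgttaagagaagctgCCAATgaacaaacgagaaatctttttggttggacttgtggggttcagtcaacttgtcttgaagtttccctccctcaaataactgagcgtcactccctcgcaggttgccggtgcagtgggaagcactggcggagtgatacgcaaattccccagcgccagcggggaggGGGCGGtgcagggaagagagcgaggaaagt
Col4a6: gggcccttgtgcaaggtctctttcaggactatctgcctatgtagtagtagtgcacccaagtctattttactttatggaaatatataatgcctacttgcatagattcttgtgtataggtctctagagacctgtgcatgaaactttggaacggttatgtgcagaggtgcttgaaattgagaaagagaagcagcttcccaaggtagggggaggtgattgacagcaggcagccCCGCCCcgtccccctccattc
Col4a5 had a GC box 30 bases and a CCAAT box 196 bases before its start, and Col4a6 had a GC box on the other strand 21 bases before its start. Such matches are common: 32.7% of 32851 mouse promoter windows of this length held a GC box and 33.8% a CCAAT box. Of the 42 collagen genes, 33 had an entry in the RefSeq promoter table and 20 of these held a GC box.

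Col4a5 (1425476_at) fell most clearly. At 48 hr it read -0.38, -0.42 and 0.08 in Notch3-/- lungs, against -0.03, 0.07 and 0.66 in Notch3-/- lungs in air. It read -0.31, -0.47 and -0.64 in Notch4-/- lungs at 48 hr, against 0.08, 0.17 and 0.25 in air. It read -0.48, -0.67 and -0.60 in WT lungs at 48 hr, against 0.25, 0.34 and 0.13 in air. The ozone and air arrays were separate in Notch4-/- and WT mice and overlapped in Notch3-/- mice, where 1 ozone array was as high as air. The mean difference over genotypes was -0.65 at 48 hr (SE 0.09, limma adjusted p = 4.33e-06). It was -0.36 at 24 hr (SE 0.09, adjusted p = 0.0136) and not past the threshold at 6 hr (-0.16, adjusted p = 0.302). At 24 hr only Notch3-/- lungs passed alone. The 24 hr differences in Notch4-/- and WT lungs were -0.24 and -0.16 (limma adjusted p = 0.412 and 0.73). The second Col4a5 probe set (1425475_at) was lower by -0.38 at 48 hr (SE 0.12, adjusted p = 0.0434), which did not hold when any of 12 of the 18 arrays was left out.

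Col4a6, the chain partner of Col4a5, fell on both of its probe sets at 48 hr. The 9 arrays at 48 hr had relative log2 signals of -0.95 to 0.00 for 1421007_at, with a median of -0.44, and the 9 air arrays -0.68 to 0.33 with a median of 0.15. In Notch3-/- and WT lungs all 3 ozone arrays were below all 3 air arrays, and in Notch4-/- lungs the low air replicate 3 at -0.68 lay among the ozone arrays at -0.43, -0.95 and -0.63. The mean difference was -0.51 (SE 0.11, adjusted p = 0.00235), and -0.36 on 1421006_at (SE 0.10, adjusted p = 0.0124). At 24 hr the differences were -0.19 and -0.19 (adjusted p = 0.341 and 0.241).

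Col4a4 encodes a chain of the alveolar type IV network and had 3 probe sets, of which 2 fell at 48 hr. On 1445328_at Notch3-/- lungs read -0.10, -0.25 and -0.41 at 48 hr, against 0.23, 0.00 and 0.65 in air. Notch4-/- lungs read -0.95, -1.18 and -0.58 at 48 hr, against -0.18, 0.30 and -0.51 in air. WT lungs read -0.23, -0.53 and -1.03 at 48 hr, against 0.29, 0.07 and 0.00 in air. All 3 ozone arrays were below all 3 air arrays in each genotype. The mean difference was -0.68 (SE 0.14, adjusted p = 0.00141), with -0.65 on 1440250_at (SE 0.16, adjusted p = 0.00643) and -0.49 on 1425772_at (SE 0.21, adjusted p = 0.142).

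Col4a3, the neighbour of Col4a4 and a chain of the same network, had differences of -0.44 (SE 0.16, adjusted p = 0.0702) on 1438779_at and -0.30 (adjusted p = 0.483) on 1450224_at at 48 hr and did not pass. Col4a1, a chain of all basement membranes, had differences of -0.02 and 0.03 on its 2 probe sets at 48 hr (SE 0.16 and 0.14). Col4a2, which winds together with Col4a1, had a difference of -0.03 (SE 0.16). On the 9 arrays at 48 hr Col4a1 (1426348_at) read -0.99 to 0.27, and in air -0.96 to 0.29, so the ranges nearly coincided.

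**Figure D2:**
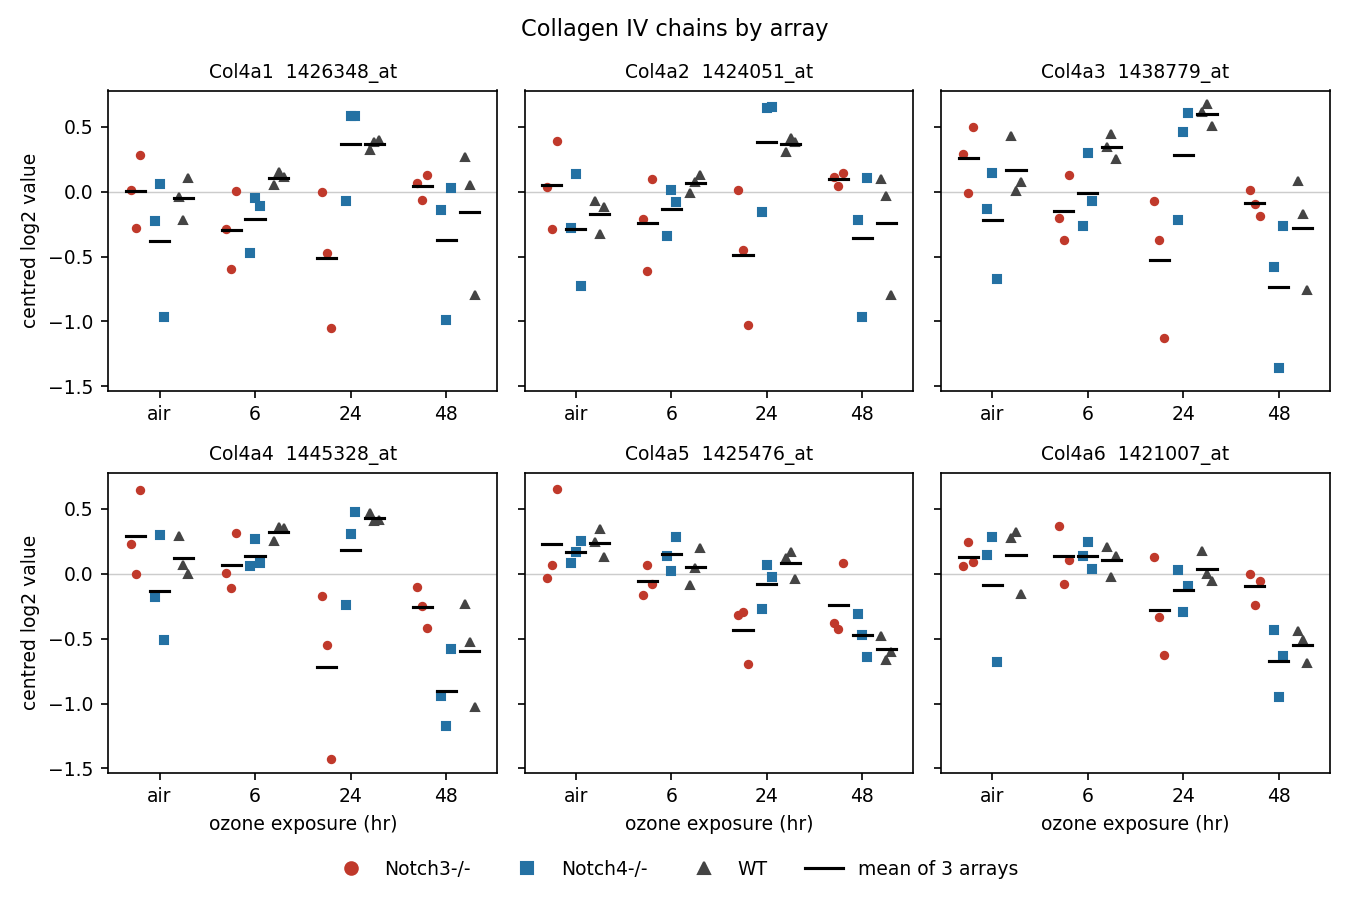
Each panel is 1 type IV collagen chain and each point 1 array, as relative log2 signal by genotype and exposure, with a bar at the mean of 3 arrays. Col4a4, Col4a5 and Col4a6 have lower means at 48 hr than in air in the 3 genotypes, with mean differences of -0.68, -0.65 and -0.51. Single arrays overlap with air for Col4a5 in Notch3-/- mice and for Col4a6 in Notch4-/- mice. Col4a3 did not pass, and Col4a1 and Col4a2 overlap with air.

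Within single arrays the difference between the 2 sets of chains was lower at 48 hr than in air. The mean relative log2 signal of the Col4a3 to Col4a6 probe sets minus that of the Col4a1 and Col4a2 probe sets was 0.09 to 0.42 on the 9 air arrays, 0.07 to 0.39 at 6 hr, -0.47 to 0.15 at 24 hr and -0.56 to 0.0044 at 48 hr, with a median of -0.27. Every array at 48 hr lay below every air array. This difference was chosen after the values of the chains were seen and is given as a description without a test.

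Markers of other cells moved at the same time, when 8.39% of all genes with 1 probe set each rose and 4.34% fell. Of 8 endothelial markers, 4 fell and 0 rose at 48 hr, with a median difference of -0.34: Tie1 (-0.54) and Emcn (-0.52), surface proteins of endothelium, Pecam1 (-0.42), its adhesion molecule, and the tight junction gene Cldn5 (-0.25). The median of the 8 markers per array lay between -0.78 and 0.05 on the 9 arrays at 48 hr and between -0.18 and 0.21 on the 9 air arrays. Of 7 alveolar type I cell markers, 2 fell (Rtkn2 -0.41, Cav1 -0.18), with a list median of -0.05. By limma 0 of 8 smooth muscle, 0 of 6 alveolar type II and 0 of 5 mesothelial markers passed at 48 hr, with 0, 1 and 1 at an unadjusted p under 0.05. The part of these shifts in the type IV collagen result was not tested.

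The 48 hr count depended on single arrays. Without Notch4-/- air replicates 1 and 2, which leaves 1 air array of that line, 4 collagen probe sets passed in place of 9. Col4a5 (1425476_at, -0.67, adjusted p = 4.52e-05), Col4a4 (1445328_at, -0.55, adjusted p = 0.0258) and Col12a1 (0.35, adjusted p = 0.0432) kept their calls, Col18a1 was added, while Col4a6 (-0.31 with adjusted p = 0.0767 on 1421007_at, and -0.27 with adjusted p = 0.132 on 1421006_at) and Col4a4 on 1440250_at (-0.47, adjusted p = 0.0971) lost theirs. The count was 5 without Notch3-/- 48 hr replicate 2 or without Notch4-/- air replicate 1.

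Fibril-associated chains gave the other calls. Col12a1 encodes a FACIT collagen that binds the surface of type I fibrils, and 1 of its 4 probe sets rose at 24 and 48 hr. On 1434411_at the 9 air arrays lay between -0.57 and -0.03, with a median of -0.26. The 9 arrays at 24 hr lay between -0.60 and 0.37 with a median of 0.15, and those at 48 hr between -0.35 and 0.20 with a median of 0.04. Most ozone arrays were above most air arrays at both times, although Notch3-/- 24 hr replicate 3, at -0.60, was the lowest of all. The mean difference was 0.37 at 24 hr (SE 0.09, adjusted p = 0.0168) and 0.29 at 48 hr (SE 0.09, adjusted p = 0.0382). The call at 24 hr was lost without Notch3-/- 24 hr replicate 1 (0.31, adjusted p = 0.051), and that at 48 hr when any of 11 of 18 arrays was left out. The other 3 probe sets, 1427391_a_at, 1440101_at and 1445751_at, did not pass at any time.

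Col14a1 encodes a FACIT chain that limits fibril growth and is a marker of adventitial fibroblasts. It was lower at 48 hr on 2 of 3 probe sets, by -0.45 on 1427168_a_at (SE 0.14, adjusted p = 0.0378) and -0.41 on 1428455_at (SE 0.13, adjusted p = 0.0374). On 1427168_a_at Notch3-/- lungs read 0.42, -0.03 and -0.13 at 48 hr, against 0.16, -0.03 and 0.09 in air. Notch4-/- lungs read -0.58, -1.05 and -0.67 at 48 hr, against 0.07, -0.05 and -0.69 in air. WT lungs read -0.44, -0.56 and -1.68 at 48 hr, against 0.10, 0.03 and -0.33 in air. Groups were separate in WT mice only, and the Notch3-/- arrays lay around air. The difference in response between Notch3-/- and WT mice did not pass the test. At 6 hr the same 2 probe sets were higher by 0.43 and 0.40 without passing (adjusted p = 0.0903 and 0.0798). Both calls at 48 hr were lost when any of 10 of 18 arrays was left out and without Notch4-/- air replicates 1 and 2 (-0.30 with adjusted p = 0.303, and -0.23 with adjusted p = 0.365).

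**Figure D3:**
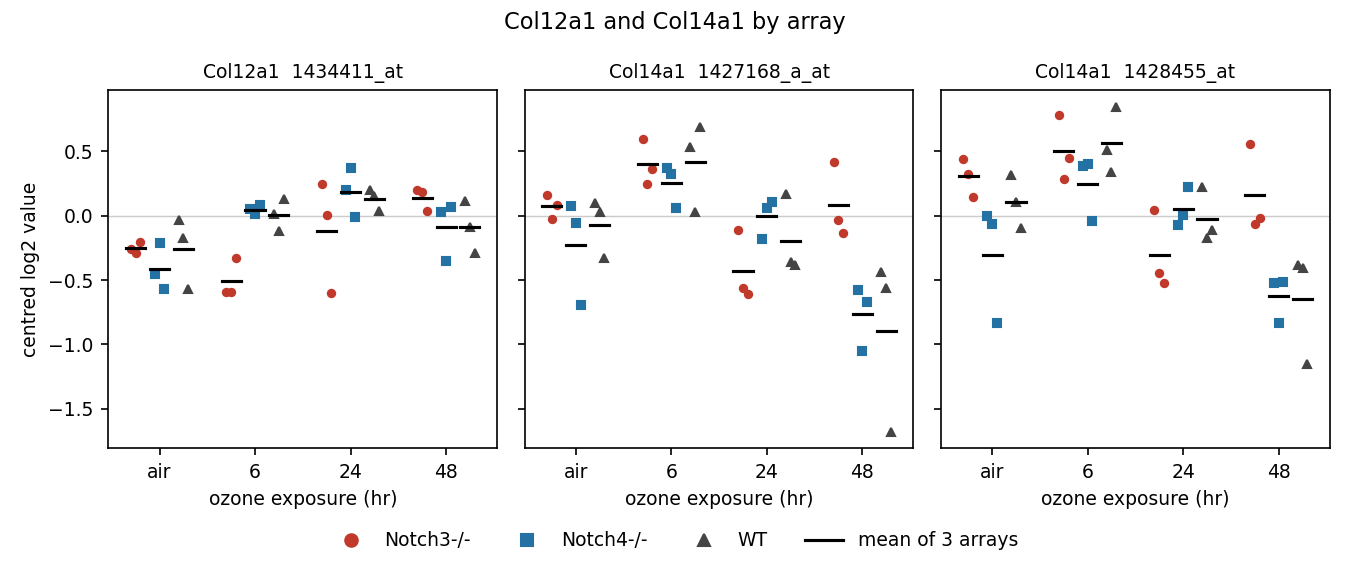
Points are the relative log2 signals of single arrays by genotype and exposure for Col12a1 (1434411_at) and for the 2 Col14a1 probe sets that passed at 48 hr, with a bar at the mean of 3 arrays. Col12a1 arrays at 24 and 48 hr mostly lie above the air arrays, whose highest value is -0.03, and on 1427168_a_at the 3 WT arrays at 48 hr lie below the 3 WT air arrays, down to -1.68, while the Notch4-/- arrays overlap with air.

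Of 10 fibroblast markers, 5 fell at 48 hr (Fbln1 -0.55, Npnt -0.42, Tcf21 -0.38, Mfap5 -0.31 and Thy1 -0.27) and 2 rose (Fn1 0.42 and Pdgfra 0.33), with a list median of -0.13. Among all genes with 1 probe set each, 4.34% fell and 8.39% rose at that time. The median of the 10 markers was -0.32 to 0.01 on the 9 arrays at 48 hr and -0.10 to 0.20 on the 9 air arrays. Their part in the Col14a1 result was not tested.

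Fibrillar chains, the bulk of collagen by mass, gave 0 calls by limma of 21 probe sets at each ozone time, with 2, 3 and 1 at an unadjusted p under 0.05 at 6, 24 and 48 hr. Col1a1, the major chain of type I collagen, had mean differences of 0.25, 0.09 and -0.11 at 6, 24 and 48 hr on 1423669_at, each with an SE of 0.22, and the 95% interval at 48 hr ran from -0.56 to 0.34. Col1a2, its partner chain, had -0.10 and -0.05 at 24 hr on 2 probe sets and -0.35 on 1446326_at (adjusted p = 0.196). Col3a1, the chain of the pliable type III fibrils, had -0.02, -0.02 and 0.19 on 1427884_at (SE 0.19). Col5a1, a chain that starts fibril assembly, had 0.07, 0.14 and 0.13 on 1416740_at (SE 0.17). Type V chains held the largest positive differences at 48 hr after Col12a1, with Col5a3 at 0.25 (adjusted p = 0.323) and Col5a2 at 0.21 (adjusted p = 0.467).

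The beaded filament chains Col6a1, Col6a2 and Col6a3, which form the microfibrils around cells, had 48 hr differences of -0.08, -0.15 (1452250_a_at) and -0.23 (adjusted p = 0.78, 0.63 and 0.328). Col8a1, a short-chain collagen of vessel walls, had 0.27, 0.27 and 0.17 on 1418440_at at 6, 24 and 48 hr (adjusted p = 0.25, 0.218 and 0.49). In the mean of the 3 genotypes, the multiplexin Col18a1, whose tail is cleaved to endostatin, had at most 0.16 on any probe set. Col15a1, a basement membrane-zone multiplexin, had at most 0.14 in that mean. In Notch4-/- lungs alone at 24 hr, Col18a1 differed by 0.51 on 1426955_at and 0.42 on 1418237_s_at (limma adjusted p = 0.164 and 0.111). The 24 hr response of Notch3-/- minus that of WT mice was -0.47 on 1418237_s_at. Among cartilage chains, Col9a1 (-0.31 on 1421381_a_at, adjusted p = 0.148) and Col2a1 (-0.25, adjusted p = 0.157) gave large negative differences at 6 hr. Of 9 cartilage markers, 0 rose and 1 fell at 6 hr, the cartilage proteoglycan Acan (-0.31), whose part in these values was not tested. Among all genes with 1 probe set each, 0.715% rose and 2.22% fell at 6 hr.

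Transmembrane chains gave the single call at 6 hr. Col25a1, a membrane collagen known from nerve and muscle, was lower by -0.26 on 1421427_at (SE 0.07, adjusted p = 0.0493). The 9 arrays at 6 hr lay between -0.50 and 0.02 with a median of -0.23, and the 9 air arrays between -0.08 and 0.21 with a median of 0.05. The call was lost when any of 14 of 18 arrays was left out, and the other Col25a1 probe set, 1438540_at, differed the other way (0.17, adjusted p = 0.169). Col13a1, a membrane collagen of cell adhesion sites, had 0.39 at 24 hr (SE 0.13, adjusted p = 0.0816), the largest positive difference among collagens then. Col27a1, a fibrillar chain, had -0.20 at 24 hr (adjusted p = 0.174).

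In single genotypes few collagen probe sets passed, and only a small share of all probe sets did. At 6 hr the counts were 0 in Notch3-/- (0.16% of all probe sets called), 0 in Notch4-/- (0.00666%) and 0 in WT mice (0%), with 6, 8 and 6 of 82 at an unadjusted p under 0.05 (12.1%, 10.5% and 8.16% of all probe sets). At 24 hr they were 3 in Notch3-/- (2.72%), 0 in Notch4-/- (1.39%) and 0 in WT mice (0.104%), with 28, 16 and 6 at an unadjusted p under 0.05 (19.1%, 17.4% and 9.71% of all probe sets). The Notch3-/- count of 3 was 15 after a further quantile normalization and 16 with array weights. At 48 hr they were 0 in Notch3-/- (2.46%), 1 in Notch4-/- (1.75%) and 1 in WT mice (1.89%), with 6, 9 and 10 at an unadjusted p under 0.05 (12.8%, 12.7% and 10.5% of all probe sets). The calls at 48 hr were both Col4a5 (1425476_at), by -0.64 in Notch4-/- (adjusted p = 0.0203) and -0.82 in WT mice (adjusted p = 0.00175), beside -0.47 in Notch3-/- mice (adjusted p = 0.099). The Notch4-/- call was lost when 48 hr replicate 2, 48 hr replicate 3 or air replicate 3 was left out on its own, and without air replicates 1 and 2 (-0.72, adjusted p = 0.0882).

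Values in the genotypes lay furthest apart at 24 hr, although no difference in response passed its test without array weights. In Notch3-/- lungs the 3 calls were Col4a5 (1425476_at, -0.67, adjusted p = 0.0147) and Col4a4 (-1.01 on 1445328_at, adjusted p = 0.024, and -1.04 on 1440250_at, adjusted p = 0.0407). Col4a4 (1445328_at) read -0.17, -0.54 and -1.43 in Notch3-/- lungs at 24 hr, against 0.23, 0.00 and 0.65 in air. It read -0.24, 0.31 and 0.47 in Notch4-/- lungs at 24 hr, against -0.18, 0.30 and -0.51 in air, and 0.47, 0.41 and 0.42 in WT lungs, against 0.29, 0.07 and 0.00. Every Notch3-/- ozone array was thus below air and every WT ozone array above it, with Notch4-/- arrays on both sides.

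Over all members, 28 collagen probe sets had all 3 Notch3-/- arrays at 24 hr below all 3 air arrays, where 15.2% of all probe sets did, and 0 had them all above (12%). In Notch4-/- lungs 3 lay all below (7.74%) and 7 all above (12.6%). In WT lungs 2 lay all below (11.4%) and 22 all above (8.36%). The median difference at 24 hr was -0.25 in Notch3-/-, 0.17 in Notch4-/- and 0.08 in WT lungs, and over all probe sets -0.05, 0.02 and -0.02. Fibrillar chains had medians of -0.42, 0.20 and 0.11, type IV chains -0.53, 0.37 and 0.42, and beaded filament chains -0.67, 0.31 and 0.15 in Notch3-/-, Notch4-/- and WT lungs.

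The tests of the difference in response called no collagen probe set, while with array weights 6 passed for Notch3-/- minus WT mice and 0 for Notch4-/- minus WT mice. For Notch3-/- minus WT they gave 0 of 82 at 6 hr (0.00888% of all probe sets called), 0 at 24 hr (0.00444%) and 0 at 48 hr (0.00222%), with 5, 29 and 4 at an unadjusted p under 0.05 (4.86%, 10.2% and 2.89% of all probe sets). For Notch4-/- minus WT they gave 0 at 6 hr (0%), 0 at 24 hr (0%) and 0 at 48 hr (0.00222%), with 3, 3 and 1 (3.09%, 5.25% and 3.29%). The largest 24 hr difference, -1.96 for Col1a1 (1455494_at), had an SE of 0.62 and an adjusted p of 0.43.

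Many collagens were low or high together on single arrays. The residual SD of the 82 probe sets had a median at the 74.2 percentile of all probe sets, with fibrillar chains at 89, type IV chains at 90.9 and FACIT chains at 40. Of the 40 fibrillar, type IV and beaded filament probe sets, 31 had their lowest Notch3-/- 24 hr value on replicate 3. On replicate 3 also lay 30 of the lowest Notch4-/- air values and 31 of the lowest WT 48 hr values. These were the groups with the highest counts, and in the other groups the array most often lowest had 16 to 28 of the 40. The share of all probe sets that were lowest on these arrays was not counted. Without Notch3-/- 24 hr replicate 3, or without Notch3-/- air replicate 3, the array with high skeletal muscle markers, 0 of the 3 Notch3-/- calls held, and without air replicate 1 only that of Col4a5 did. Without Notch4-/- air replicates 1 and 2, which leaves the low replicate 3 as the only air array, 11 collagen probe sets passed in Notch4-/- lungs at 24 hr in place of 0.

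**Figure D4:**
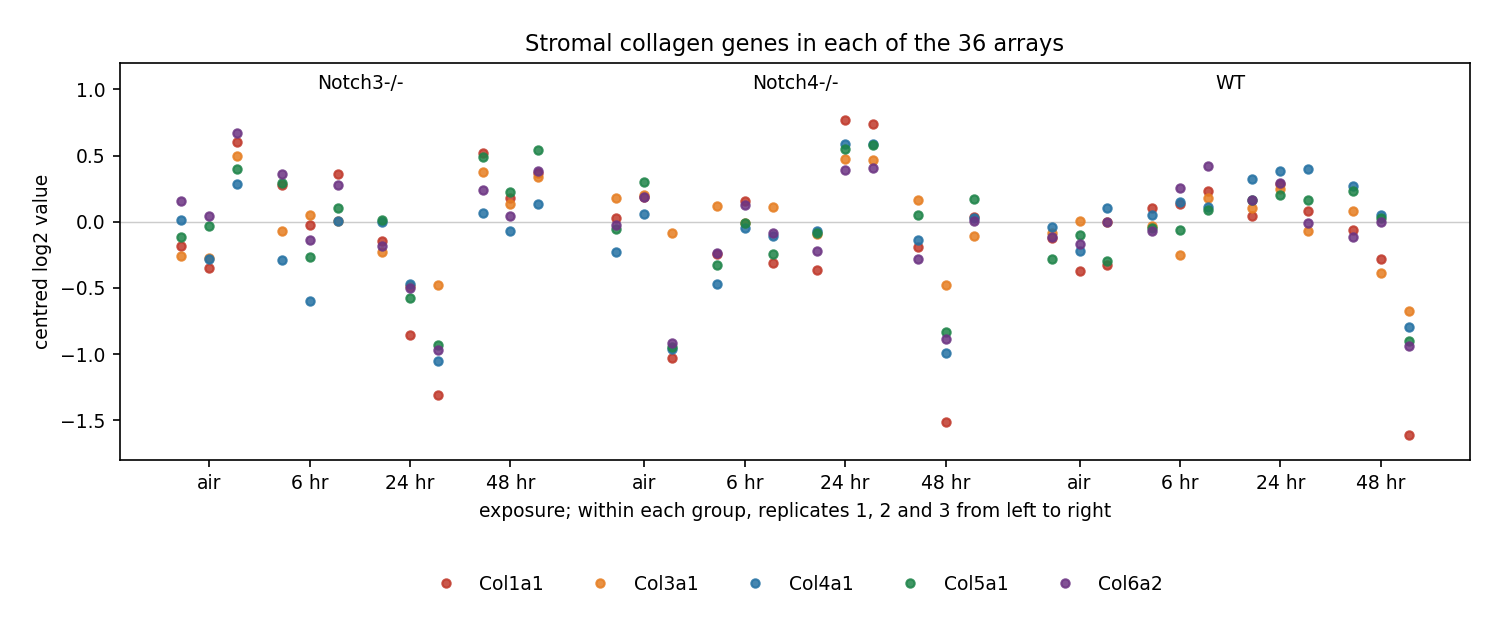
The 36 arrays run along the horizontal axis in their 12 groups, and points give the relative log2 signals of Col1a1, Col3a1, Col4a1, Col5a1 and Col6a2, 1 probe set each. On several arrays the chains are low together, among them Notch3-/- 24 hr replicate 3, with Col1a1 at -1.31 and Col4a1 at -1.05, and WT 48 hr replicate 3, with Col1a1 at -1.61 and Col4a1 at -0.80.

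Between genotypes the clearest difference was Col23a1, a transmembrane collagen shed from the cell surface, which was lower in both knockouts. In air alone 0 collagen probe sets passed in Notch3-/- against WT mice (0.486% of all probe sets called) and 0 in Notch4-/- against WT mice (0.482%), with 7 of 82 each at an unadjusted p under 0.05 (7.22% and 7.4% of all probe sets). Averaged over the 4 exposures, 3 collagen probe sets were higher and 3 lower in Notch3-/- than in WT mice, where 3.28% and 2.4% of all probe sets were. In Notch4-/- against WT mice 0 were higher and 3 lower, where 2.87% and 2.89% were. All 3 probe sets lower in Notch3-/- mice, and 2 of the 3 lower in Notch4-/- mice, were Col23a1.

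On 1429209_at the 12 Notch3-/- arrays had relative log2 signals of -0.43 to 0.07 for Col23a1 with a median of -0.33. The 12 Notch4-/- arrays ran from -0.31 to 0.16 with a median of -0.09, and the 12 WT arrays from 0.06 to 0.55 with a median of 0.33. Only the highest Notch3-/- array, air replicate 1, reached into the WT range, which the Notch4-/- arrays overlapped on 4 of 12. The difference was -0.58 for Notch3-/- minus WT (SE 0.07, adjusted p = 5.59e-07) and -0.38 for Notch4-/- minus WT (SE 0.07, adjusted p = 0.000388). On 1440911_at it was -0.74 (adjusted p = 4.39e-06) and -0.48 (adjusted p = 0.00171), and on 1429210_at -0.83 (adjusted p = 0.00508) and -0.50 (adjusted p = 0.132). The 2 comparisons share the WT arrays.

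**Figure D5:**
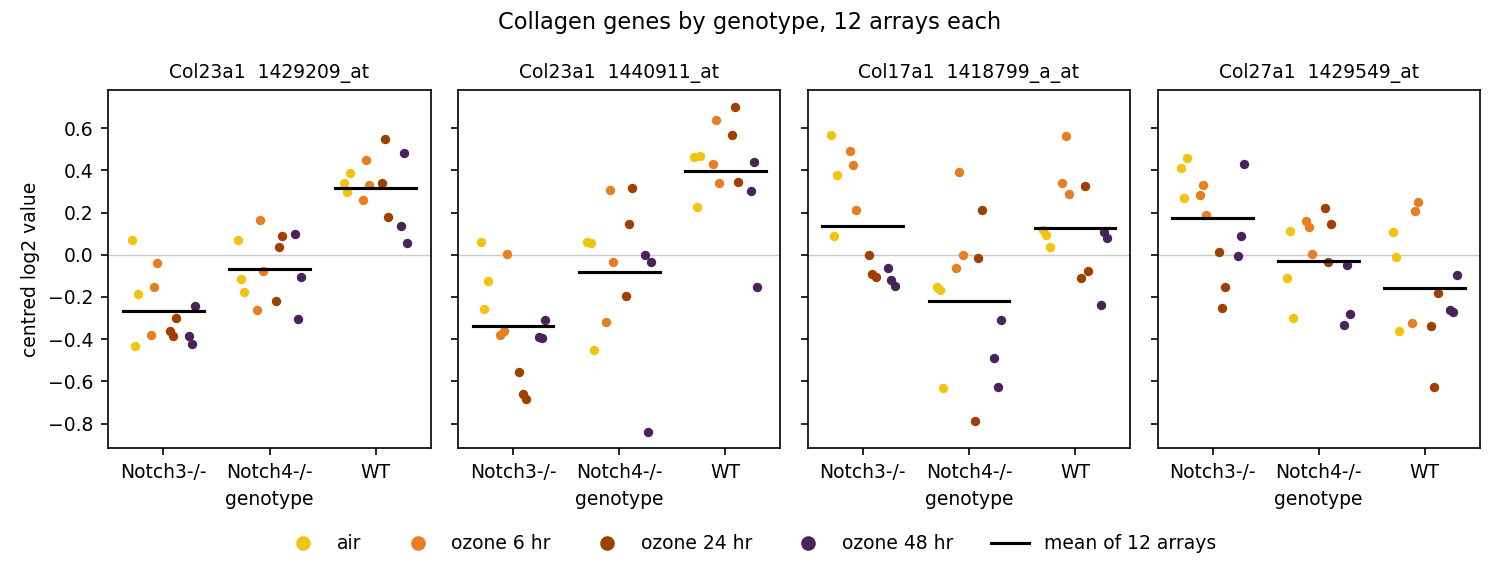
Points are the relative log2 signals of the 12 arrays of each genotype, coloured by exposure, for 2 Col23a1 probe sets, Col17a1 and Col27a1, with a bar at the mean. Col23a1 (1429209_at) is at or below 0.16 on the knockout arrays and between 0.06 and 0.55 on the WT arrays, Col17a1 is lowest in Notch4-/- mice and Col27a1 highest in Notch3-/- mice.

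Col17a1, the hemidesmosomal collagen of basal epithelial cells, was lower in Notch4-/- mice. The 12 Notch4-/- arrays lay between -0.79 and 0.39 with a median of -0.16, the 12 WT arrays between -0.24 and 0.56 with a median of 0.10, and the ranges overlapped. The difference was -0.35 (SE 0.09, adjusted p = 0.0181), and without the 3 arrays of widest spread -0.29 (adjusted p = 0.0805). Between the knockouts, 1 collagen probe set was higher and 0 were lower in Notch3-/- than in Notch4-/- mice, where 0.644% and 0.449% of all probe sets were, and it was Col17a1 (0.36, SE 0.09, adjusted p = 0.0482). That call was lost when any of 16 of 24 arrays was left out.

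The 3 probe sets higher in Notch3-/- than in WT mice differed by less. Col27a1 (1429549_at), a fibrillar chain of cartilage and developing tissue, had a median of 0.23 in Notch3-/- and -0.22 in WT mice and differed by 0.33 (SE 0.07, adjusted p = 0.00405). Col25a1 (1438540_at) differed by 0.25 (SE 0.06, adjusted p = 0.0081). Col9a3 (1460734_at), a cartilage FACIT chain, differed by 0.20 (SE 0.06, adjusted p = 0.0449), which did not hold without the 3 arrays of widest spread (0.19, adjusted p = 0.0704) or when any of 16 of 24 arrays was left out. The ranges of Col27a1 over the 12 arrays overlapped, from -0.25 to 0.46 in Notch3-/- and -0.63 to 0.25 in WT mice. The other probe sets of Col27a1 (0.16, adjusted p = 0.149), Col25a1 (0.09, adjusted p = 0.527) and Col9a3 (0.07 and 0.00) did not pass.

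Neutrophil markers also differed between genotypes when averaged over the 4 exposures. Of 6 measured, 6 were higher in each knockout than in WT mice, with a median difference of 0.98 in Notch3-/- and 0.56 in Notch4-/- mice. Over all genes with 1 probe set each, 4.39% were higher and 2.58% lower in Notch3-/-, and 3.62% and 3.05% in Notch4-/- mice. The median of the 6 markers per array lay between -0.05 and 1.66 on Notch3-/- arrays, between -0.24 and 0.97 on Notch4-/- arrays and between -0.65 and 0.02 on WT arrays. In air alone S100a8 (1.45), S100a9 (1.37) and Mmp9 (0.77) did not pass in Notch3-/- mice (limma adjusted p = 0.512, 0.605 and 0.596). Over the 4 exposures, 2 of 7 alveolar type I markers were lower and 1 higher in Notch3-/- mice, and 3 were lower in Notch4-/- mice. Of 8 endothelial markers 2 were lower in each knockout, Tek and Tie1. The part of these shifts in the collagen differences was not tested.

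A few genes that modify, process and crosslink collagen passed the test. Over all genes with 1 probe set each, 0.715% rose and 2.22% fell at 6 hr, 3.88% and 2.56% at 24 hr, and 8.39% and 4.34% at 48 hr. Of 16 measured genes of chain modification and folding, 2 fell at 6 hr, the collagen chaperone Serpinh1 (-0.60, adjusted p = 0.00965) and the prolyl hydroxylase subunit P4ha2 (-0.36, adjusted p = 0.0256). At 24 hr 2 others fell, the lysyl hydroxylase Plod2 (-0.34) and the galactosyltransferase Colgalt2 (-0.30). Both were lower again at 48 hr (-0.53 and -0.49, adjusted p = 1.17e-05 and 5.53e-05), when P4ha3 (0.36) and P4hb (0.21), further prolyl hydroxylase subunits, rose. Of 10 measured genes of procollagen processing and crosslinking, the protease gene Tll1 rose at 6 hr (0.57), 0 passed at 24 hr (2 at an unadjusted p under 0.05), and the procollagen C-proteinase enhancers Pcolce2 (-0.44) and Pcolce (-0.29) fell at 48 hr.

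Among proteases that cleave collagen and their inhibitors, Timp1 rose most with ozone. Of 9 genes 0 passed at 6 hr (0 at an unadjusted p under 0.05), 1 rose at 24 hr and 3 rose at 48 hr. The metalloproteinase inhibitor Timp1 rose by 2.94 at 24 hr and 2.99 at 48 hr (adjusted p = 5.47e-10 and 2.94e-10), the collagen-cleaving cathepsin Ctsk by 0.77 at 48 hr (adjusted p = 8.01e-07) and the neutrophil collagenase Mmp8 by 0.68 (adjusted p = 0.0139). Averaged over the 4 exposures, 4 were higher in Notch3-/- than in WT mice, led by Mmp8 (1.08), Mmp9 (0.96) and Mmp13 (0.80). In air alone these 3 differences were 0.91, 0.77 and 0.70 and did not pass (limma adjusted p = 0.379, 0.596 and 0.13). In Notch4-/- against WT mice over the 4 exposures 4 were higher, led by Mmp13 (0.66), Mmp9 (0.55) and Mmp8 (0.54). The inhibitor Timp2 was lower (-0.53). Over all genes with 1 probe set each, 4.39% were higher and 2.58% lower in Notch3-/-, and 3.62% and 3.05% in Notch4-/- mice. Mmp9 is also on the neutrophil list.

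Of 11 fibril-associated proteoglycan and matrix genes 0 passed at 6 hr (1 at an unadjusted p under 0.05) and 1 fell at 24 hr, Aspn (-0.59). At 48 hr 4 fell and Thbs2 rose (0.42), and the largest falls were the collagen-binding Tnxb (-0.58) and the small leucine-rich proteins Aspn (-0.51) and Prelp (-0.48). Of 12 genes of the TGF-beta pathway and its matrix targets, Ccn2, a matricellular target, rose at 6 hr (0.45), 0 passed at 24 hr (0 at an unadjusted p under 0.05), and at 48 hr the ligand Tgfb2 (-0.55) and the target Postn (-0.32) fell while Fn1 (0.42) rose. Of 9 measured collagen receptors 0 passed at any time by limma, with 4, 1 and 2 at an unadjusted p under 0.05 at 6, 24 and 48 hr. Averaged over the 4 exposures, the inhibitory receptor Lair1 was higher in Notch3-/- than in WT mice (0.33). In the knockouts against WT in the same averages, the crosslinking gene list gave Tll1 lower (-0.64 in Notch3-/-, -0.61 in Notch4-/-) and Loxl3 higher (0.21 in each). The modification list gave Plod1 lower (-0.66) and Colgalt1 higher (0.30) in Notch3-/- and Crtap lower (-0.22) in Notch4-/- mice.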

How the data were processed

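Total RNA of snap-frozen left lungs was hybridised by the authors to Affymetrix mouse genome arrays, and signals were normalized by the robust multiarray average. The deposited values are on the log2 scale. On the 36 arrays every probe set had a median of 0 to within 5e-07, so the deposited values had been centred by probe set, a step that the sources used here do not state. Brightness could therefore not be read, and no gene was set against another by level. The number of arrays, 3 a group, limits the precision: the median SE of a collagen probe set was 0.176 for 1 genotype and 0.102 for the mean of 3.

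Of 45101 probe sets, 64 controls were left out. Symbols came from GEO's platform annotation: 34945 of 45037 probe sets had 1 symbol, 932 several and 9160 none. The 82 members all matched a current Entrez gene, with no symbol changed. Linear models with 1 mean for each of 12 groups were fitted to all 36 arrays (limma 3.58.1, R 4.3.3, lmFit and eBayes), the Benjamini-Hochberg method was applied across all 45037 probe sets, and an adjusted p under 0.05 was called. Ozone was compared with air in each genotype and as the mean of the 3 genotypes, knockouts with WT in air and over the 4 exposures, and responses by their difference. The scripts were tested on simulated data.

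The members, roles and gene lists were chosen with earlier results of these data known. Named were all members that passed a comparison (up to 8 for single genotypes), 15 chains chosen by role whatever their values, and the 3 largest positive and negative differences at each time. For the pathway lists at most 3 genes by size were named, apart from marker genes and the few that made up a count. Where 1 probe set stood for a gene, it was the most specific, then the lowest number. Alternatives were a further quantile normalization, centring of arrays, array weights, a replicate block, the ANOVA with Tukey test of the methods, 1 probe set for each gene, and leaving out arrays. Probe sets of Col6a6 and Col28a1 were not analysed here.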

Additional observations from a re-analysis of the deposited data

Results flagged for a closer look

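For 12 collagen probe sets the 3 ozone arrays of 1 genotype all lay above its air arrays while those of another genotype all lay below, which gave 13 differences in response between genotypes. Of all probe sets 5.73% did so at some time, 1.41% at 6 hr, 3.97% at 24 hr and 0.659% at 48 hr, and of the 82 collagen probe sets 1 did at 6 hr, 10 at 24 hr and 1 at 48 hr. None passed the test of the difference across all probe sets where it was run, for Notch3-/- and Notch4-/- against WT mice, although with array weights 6 collagen probe sets passed for Notch3-/- against WT mice; Notch4-/- against Notch3-/- mice was not tested. Of these differences, 11 rest on Notch3-/- mice at 24 hr. There replicate 3 was the lowest array of its group for 31 of 40 fibrillar, type IV and beaded filament probe sets, a share not counted over all probe sets.

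At 24 hr the response of Notch3-/- minus that of WT mice was -1.96 for Col1a1 (1455494_at) and -1.31 for Col1a2 (1423110_at), the chains of type I collagen. It was -1.47 and -1.32 for Col4a4 (1440250_at and 1445328_at) and -1.21 for Col4a3 (1438779_at), chains of the alveolar type IV network. It was -1.05 for Col6a1 (1448590_at) and -0.89 for Col6a2 (1426947_x_at), the beaded filament chains. It was -0.82 for Col8a1 (1455627_at), the short-chain collagen, and -0.47 for Col18a1 (1418237_s_at), the multiplexin. In each of these, every Notch3-/- ozone array was below every Notch3-/- air array and every WT ozone array above every WT air array.

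Between the knockouts, the response of Notch4-/- minus that of Notch3-/- mice at 24 hr was 0.64 for Col18a1 (1418237_s_at) and 0.52 for Col26a1 (1425310_a_at). At 6 hr it was 0.72 for Col12a1 (1434411_at), which read 0.05, 0.01 and 0.08 in Notch4-/- lungs at 6 hr, against -0.45, -0.21 and -0.57 in air, and -0.60, -0.59 and -0.32 in Notch3-/- lungs at 6 hr, against -0.26, -0.29 and -0.20 in air. At 48 hr the response of Notch3-/- minus that of Notch4-/- mice was 0.48 for Col25a1 (1438540_at), the membrane collagen.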

How the results depend on the processing

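None of the 27 collagen differences that passed changed sign under the alternatives run for it, and differences that did not pass were not rerun one by one. Counts of collagen probe sets called moved by more than 1.5 times as follows, where alternatives not named for a comparison left its count within that range. With 1 array left out at a time, the count for the mean of the 3 genotypes was 0 to 1 at 6 hr (1 with all arrays), 1 to 3 at 24 hr (2) and 5 to 9 at 48 hr (9). It was 0 to 4 in Notch3-/- mice at 24 hr (3), 0 to 1 in Notch3-/- mice at 48 hr (0), 0 to 1 in Notch4-/- mice at 24 hr (0) and at 48 hr (1), 1 to 2 in WT mice at 48 hr (1), 0 to 1 for Notch3-/- minus WT in air (0) and 0 to 1 for Notch3-/- minus Notch4-/- mice (1).

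Array weights gave 6 calls at 6 hr and 4 at 24 hr for the mean of genotypes, 16 in Notch3-/- mice at 24 hr and 5 at 48 hr, 2, 6 and 6 in Notch4-/- mice at 6, 24 and 48 hr, 2 in WT mice at 24 hr, 4 and 2 for Notch3-/- and Notch4-/- minus WT in air, 6 for Notch4-/- minus WT and 3 for Notch3-/- minus Notch4-/- over exposures, and 6 for the differences in response between Notch3-/- and WT mice. A further quantile normalization gave 15 in Notch3-/- mice at 24 hr, 1 and 0 in Notch4-/- mice at 24 and 48 hr, and 1 for Notch3-/- minus WT in air. Centring arrays gave 0 at 6 hr. The ANOVA with Tukey test, whose differences in response used unmoderated p-values with Benjamini-Hochberg adjustment, gave 0, 0 and 3 for the mean of genotypes at 6, 24 and 48 hr, 0 in Notch3-/- mice at 24 hr, 0 in Notch4-/- and in WT mice at 48 hr, and 0 for Notch3-/- minus Notch4-/-. With 1 probe set for each gene, fewer probe sets were counted: 1 at 24 hr and 4 at 48 hr for the mean of genotypes, 0 in Notch3-/- mice at 24 hr, 0 in Notch4-/- and in WT mice at 48 hr, and 3 for Notch3-/- minus WT over exposures. The cause of the other shifts was not tested.

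The replicate numbers pair no animals by the labels. Same-numbered arrays had correlated deviations of -0.505 to 0.617 (median 0.0744, 89 of 198 pairs over 0.1), and arrays of different number -0.607 to 0.496 (median -0.05, 117 of 396 over 0.1). Not every same-numbered pair was over 0.1, the condition for pairing, so the numbers were not taken to pair the arrays. As a hint from the data, not the design, 25 of 36 arrays correlated best with their own number. With the replicate block the count was 2 for the mean of genotypes at 6 hr, 1 in Notch4-/- mice at 24 hr and 5 in WT mice at 48 hr, and within 1.5 times elsewhere.

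Both of the following were chosen after seeing the data. Without the 3 arrays of widest spread the count was 0 at 6 hr for the mean of genotypes and 0 in Notch4-/- mice at 48 hr. Without Notch4-/- air replicates 1 and 2 it was 3 at 6 hr and 4 at 48 hr for the mean of genotypes, 11 and 0 in Notch4-/- mice at 24 and 48 hr, and 2 for Notch3-/- minus Notch4-/-. The filter on dim probe sets and another background correction were not run, since centred values carry no brightness and no scanner files were used here.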
